A study of Mus musculus with 24 samples.

Results

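The comparison set megakaryocyte progenitors against the progenitors one step above them in mice whose blood cells carry an activating Jak2 mutation. Both groups came from the line labelled Vav1.Cre V617F (VF), a Cre line of the strain C57BL/6N: MkP VF, the megakaryocyte progenitors, and pre-MegE VF, progenitors that can still form megakaryocytes and red cells. These were 3 MkP VF and 3 pre-MegE VF libraries, 6 of the 24 libraries of the series, chosen by the population and genotype given in the labels. The mice had received tamoxifen on 5 days, and cells were sorted from bone marrow by flow cytometry 12 weeks later. RNA was extracted with a PicoPure kit and made into libraries by Smart-seq2, a full-length method for small amounts of RNA. Both groups carry the mutation and the Cre driver, which Vav1 directs to blood cells, so the comparison holds no unmutated control and describes a step of differentiation within the mutant line. The labels give neither the ages and number of animals, nor the sort gates, nor whether the replicates came from separate animals, so a p-value reflects how far these 6 libraries vary, and some of that variation may be technical.

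Pre-MegE cells stand at the branch between the red cell and the platelet lineage. The erythroid branch needs the factor KLF1, erythropoietin signalling, iron uptake and heme synthesis, while megakaryocytes respond to thrombopoietin, fill alpha and dense granules, build a membrane system and finally shed platelets. JAK2 carries the signals of both erythropoietin and thrombopoietin, and the V617F change makes the kinase active without a ligand. Megakaryocyte progenitors also share several surface receptors and transcription factors with haematopoietic stem cells.

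The 6 libraries held 20354022 to 24952650 counts and 14608 to 15612 detected genes each, and on the first principal component, which took 62.4% of the variance of the 500 most variable genes, the 3 MkP VF libraries lay on one side and the 3 pre-MegE VF libraries on the other. Some libraries stood apart. Pre-MegE VF 1 held neutrophil granule RNA above the other libraries, with S100a8 at 27.7, 71.4 and 140 CPM, that is counts scaled to the size of the library, in MkP VF and at 2311, 15.0 and 74.1 CPM in pre-MegE VF, and the nuclear RNA Malat1 at 2778 CPM against 773 to 1434 CPM in the other 5. In the libraries numbered 2 of both groups, Xist RNA stood beside Y-linked RNA: Xist was at 598 CPM in MkP VF 2 and 309 CPM in pre-MegE VF 2, and Ddx3y, a Y-linked gene, at 52.2 and 20.7 CPM. Beside each gene list, the count without both of these libraries is given where it moved by more than 1.5 times.

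Of 13220 genes with enough counts to test, 412 were higher in MkP VF than in pre-MegE VF (3.12%) and 455 were lower (3.44%), so 6.56% changed at an adjusted p under 0.05 (edgeR quasi-likelihood test, Benjamini-Hochberg). Among the genes that rose were 24 of 34 platelet receptors, 12 of 23 alpha-granule cargo genes and 21 of 42 platelet signalling genes, and among those that fell 16 of 33 red cell membrane genes and 11 of 16 lymphoid genes. The median log2 change was 1.49 among the genes that rose, -1.81 among those that fell and -0.024 over all genes tested. Large decreases outnumbered large increases: 71 of the genes that fell and 5 of those that rose differed by more than 16-fold. The libraries of the groups did not overlap for 864 of the 867 changed genes and for 26.1% of all genes tested, 14.0% with every MkP VF library above and 12.2% with every one below. With each library left out in turn, between 153 genes (without MkP VF 3) and 528 (without pre-MegE VF 1) rose, and between 161 (without MkP VF 3) and 556 (without pre-MegE VF 1) fell. Without both libraries numbered 2, 180 rose and 177 fell. Of the 867 genes, 234 passed in all 6 refits, and a gene described below without a remark on a left-out library is one of them.

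**Figure D1:**
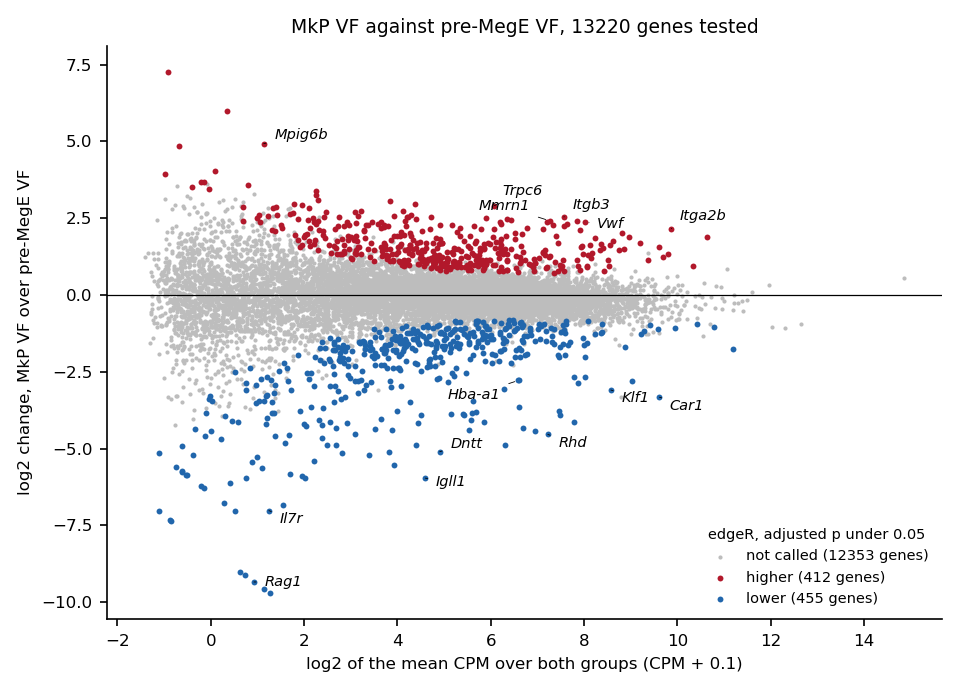
Change between populations against expression level, 1 point per gene for the 13220 genes tested: x, log2 of the mean CPM plus 0.1 over the 6 libraries; y, log2 change of MkP VF over pre-MegE VF; red, 412 genes higher in MkP VF, blue, 455 lower, grey, not called. More blue points (71) than red points (5) lie beyond a 16-fold change, and the labelled blue points are lymphoid and erythroid genes.

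The labels of the populations were checked with defining markers. Itga2b, which codes for the integrin chain CD41, was at 1676, 1420 and 1493 CPM in MkP VF and at 313, 434 and 278 CPM in pre-MegE VF, and the marker genes Pf4, Gp9, Gp1bb and Vwf were also above every pre-MegE VF library in all 3 MkP VF libraries. Klf1, Car1 and Hba-a1, markers of the red cell lineage, were lower in every MkP VF library, in keeping with both labels. Epor, a further marker of that lineage, overlapped between the groups. Of the stem cell markers, Procr and Fgd5 were under 2 CPM in all 6 libraries. Hlf, a further stem cell marker, was above that level in every library, with values given below, and Mecom and Ly6a were not called. The gates were not given, but in commonly used schemes MkP are sorted for CD41 and CD150 and pre-MegE for CD150 without CD41. The difference of Itga2b (log2 2.16 ± 0.25 (SE), edgeR adjusted p = 0.00124) was therefore read only as a check, since the sort may have used CD41.

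Other sort markers moved less evenly. Slamf1, which codes for CD150, was at 77.2, 58.9 and 44.6 CPM in MkP VF and 27.0, 17.6 and 22.4 CPM in pre-MegE VF (log2 1.43 ± 0.27, edgeR adjusted p = 0.00972, but 0.0535 without pre-MegE VF 3). Cd9, a tetraspanin of platelets, rose by 1.76 ± 0.25 on the log2 scale (edgeR adjusted p = 0.00229). Cd34 and Cd48, surface proteins of early progenitors, were lower by edgeR with log2 changes of -1.20 and -1.18 and adjusted p of 0.0164 and 0.0146. Cd34 lost its call without MkP VF 1, 2 or 3 or pre-MegE VF 3, with edgeR adjusted p of 0.112, 0.071, 0.0798 and 0.0627, and Cd48 lost it without MkP VF 1 (0.0951) or MkP VF 3 (0.0917). Kit, the stem cell factor receptor, was at 484, 516 and 507 CPM in MkP VF and at 451, 492 and 637 CPM in pre-MegE VF, and Eng, Ly6a, Fcgr2b and Fcgr3 were likewise not called, with edgeR adjusted p of 0.903 for Kit, 0.892, 0.513, 0.511 and 0.513.

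Platelet surface receptors formed the group with the largest share of increases. Of 34 tested, 24 rose, 1 fell and 9 did not pass, with a median log2 change of 1.64. Itgb3, the beta chain that pairs with CD41 to bind fibrinogen (chr11:104608000-104670476, GRCm38.p6), was at 334, 275 and 361 CPM in MkP VF and at 51.3, 57.3 and 57.8 CPM in pre-MegE VF. The groups were far apart and tight within themselves (log2 2.54 ± 0.21, edgeR adjusted p = 0.000366). Trpc6, a cation channel (chr9:8543867-8680752), showed the smallest adjusted p of the group, at 144, 101 and 112 CPM in MkP VF and 18.1, 14.0 and 15.4 CPM in pre-MegE VF (log2 2.91 ± 0.23, edgeR adjusted p = 0.000294). F2rl2, a thrombin-receptor relative known as PAR3 and named here after its values were seen, was at 323, 303 and 313 CPM in MkP VF and 68.1, 69.0 and 60.4 CPM in pre-MegE VF, no library reaching the other group's range (log2 2.25 ± 0.20, edgeR adjusted p = 0.000532).

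Clec1b, the receptor for podoplanin known as CLEC-2, was at low levels but separated, at 17.1, 12.3 and 14.6 CPM in MkP VF and 3.45, 1.58 and 1.71 CPM in pre-MegE VF (log2 2.71 ± 0.39, edgeR adjusted p = 0.00264). Mpig6b, an inhibitory receptor that megakaryocytes need for platelet production, was at 4.63, 1.58 and 6.00 CPM in MkP VF and at 0.0507, 0 and 0.311 CPM in pre-MegE VF, and its log2 change of 4.93 ± 0.96 (edgeR adjusted p = 0.012) did not pass without MkP VF 3 (0.0755). The ADP receptor P2ry1, the ATP-gated channel P2rx1, the thromboxane receptor Tbxa2r, the prostaglandin receptor Ptger3, the thrombin receptor F2r and the von Willebrand receptor chain Gp1ba all rose, with log2 changes of 1.44 to 2.07 and edgeR adjusted p of 0.00229 to 0.00451. The other chains of that receptor complex passed less firmly: Gp9 had an edgeR adjusted p of 0.0484 and Gp1bb of 0.0383, each passing in 1 of the 6 refits. Cd36, a scavenger receptor, was the 1 member that fell, at 0.0417, 0.0929 and 0.788 CPM in MkP VF and 1.78, 4.33 and 7.34 CPM in pre-MegE VF (log2 -3.84, edgeR adjusted p = 0.0331). It did not pass without MkP VF 1 (0.0778), MkP VF 2 (0.0818), pre-MegE VF 2 (0.0983) or pre-MegE VF 3 (0.15). Selp, Pecam1 and Itgb1 were not called, and Gp6 and P2ry12, receptors of mature platelets, had too few counts to test. Without 1 library, 17 to 25 receptors rose, and 16 rose in all 6 refits. Without both libraries numbered 2, 18 rose and 0 fell.

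The proximal promoters of 3 genes that moved far between the populations are shown with the GATA motif AGATAA or the ETS motif GGAAGT, on either strand, in capitals, since GATA1 and FLI1, an ETS factor, are known regulators of the 2 lineages. The genes had the largest change in the receptor, cargo and red cell membrane lists among members with a single listed start, 10 CPM or more on average in the population where they are higher, and a match to a searched motif. Each line is the 250 bases before the start listed by RefSeq, GRCm38.p6, on the plus strand. F2rl2 (chr13:95696670-95696919) and Mmrn1 (chr6:60944067-60944316), a carrier of factor V in alpha granules, rose, and Rhd (chr4:134864286-134864535), a blood group protein, fell.
F2rl2: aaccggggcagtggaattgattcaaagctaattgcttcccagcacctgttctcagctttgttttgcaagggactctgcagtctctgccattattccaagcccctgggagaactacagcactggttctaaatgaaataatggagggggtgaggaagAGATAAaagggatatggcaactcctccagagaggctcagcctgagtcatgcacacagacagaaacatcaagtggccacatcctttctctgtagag
Mmrn1: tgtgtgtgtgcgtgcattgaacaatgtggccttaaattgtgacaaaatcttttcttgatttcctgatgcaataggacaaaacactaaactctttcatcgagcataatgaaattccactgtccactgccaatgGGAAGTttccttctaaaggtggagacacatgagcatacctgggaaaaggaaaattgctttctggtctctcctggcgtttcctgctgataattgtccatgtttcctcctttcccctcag
Rhd: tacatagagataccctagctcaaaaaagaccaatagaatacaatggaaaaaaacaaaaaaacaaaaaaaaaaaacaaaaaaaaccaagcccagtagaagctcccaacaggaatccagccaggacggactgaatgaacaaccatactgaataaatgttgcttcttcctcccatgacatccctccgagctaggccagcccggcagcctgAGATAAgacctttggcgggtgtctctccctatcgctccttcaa
Among genes with a single listed start, AGATAA or its reverse TTATCT stood in 7.6% of the 250 promoters of genes that rose, 9.06% of the 254 of genes that fell, 6.11% of the 8392 of genes tested and 10.4% of all 22862. GGAAGT or its reverse ACTTCC stood in 20% of promoters of genes that rose, 20.9% of those of genes that fell and 24.8% of those of genes tested. A match is only these letters in this window, and the shares are given as descriptions with no test.

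Alpha granules are the storage organelles whose adhesive proteins, growth factors and chemokines platelets release. Of 23 cargo genes tested, 12 rose and none fell, with a median log2 change of 1.73. Vwf, the adhesive von Willebrand factor (chr6:125552948-125686679), was at 600, 364 and 336 CPM in MkP VF and 92.3, 109 and 49.5 CPM in pre-MegE VF (log2 2.37 ± 0.34, edgeR adjusted p = 0.00234). Mmrn1 was at 314, 221 and 240 CPM in MkP VF and 68.4, 36.0 and 40.6 CPM in pre-MegE VF (log2 2.42 ± 0.29, edgeR adjusted p = 0.00139). Both were highest in MkP VF 1 and apart between the groups. Serpine2, a thrombin inhibitor, was at 427, 323 and 403 CPM in MkP VF and 79.3, 79.7 and 58.3 CPM in pre-MegE VF, and Pdgfb, a growth factor chain, at 9.35, 7.34 and 9.24 CPM in MkP VF and 1.83, 0.466 and 0.776 CPM in pre-MegE VF. Their log2 changes were 2.41 ± 0.23 and 3.08 ± 0.52 (edgeR adjusted p = 0.000696 and 0.00612). Timp3, a protease inhibitor, Pros1, the anticoagulant protein S, and Ltbp1, which holds latent TGF-beta, rose by log2 2.17, 2.28 and 2.03.

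Pf4, platelet factor 4 and a usual first sign of the lineage, was already abundant in pre-MegE VF. It was at 3184, 1863 and 2512 CPM in MkP VF and 1339, 434 and 261 CPM in pre-MegE VF, so that pre-MegE VF 1 came near the MkP VF range. Its log2 change was 1.89 ± 0.51 (edgeR adjusted p = 0.0489), and it passed in 1 of the 6 refits. Per length, Pf4 ranked number 2 of all genes in MkP VF, at a mean of 8990 TPM, a unit scaled for gene length and depth, and number 46 in pre-MegE VF, at 1905 TPM. Clu, a secreted chaperone, rose by 2.44 ± 0.46 on the log2 scale (edgeR adjusted p = 0.01) but not without pre-MegE VF 2 (0.0705) or pre-MegE VF 3 (0.0508). Srgn, F13a1 and Tgfb1, further granule genes, overlapped between the groups. Leaving out a library gave 8 to 13 higher cargo genes, 7 of them in all 6 refits.

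Platelet signalling genes changed in the same direction. Of 42 tested, 21 rose and none fell, with a median log2 change of 0.93. Gucy1a1 and Gucy1b1, the chains of the nitric oxide receptor, rose together: Gucy1a1 was at 172, 140 and 102 CPM in MkP VF and 28.8, 21.4 and 23.8 CPM in pre-MegE VF, and their log2 changes were 2.49 ± 0.25 and 2.24 ± 0.27 (edgeR adjusted p = 0.000696 and 0.00145). Cavin2, a coat protein of membrane pits called caveolae, was at 373, 301 and 321 CPM in MkP VF and 95.2, 61.1 and 46.0 CPM in pre-MegE VF, with no overlap (log2 2.30 ± 0.28, edgeR adjusted p = 0.00145). The enzymes of thromboxane synthesis Ptgs1 and Tbxas1 rose by log2 2.01 and 1.61, the kinases Src and Prkcq by 2.07 and 1.47, and Pde5a, which breaks down cyclic GMP, by 1.74. Alox12, the platelet lipoxygenase, rose by 2.83 ± 0.51 (edgeR adjusted p = 0.00793; 0.053 without pre-MegE VF 3). Pde3a, a further phosphodiesterase, was at the threshold (edgeR adjusted p = 0.0498) and passed in none of the 6 refits. Of the 21, 10 rose in all 6 refits, and the count was 12 without MkP VF 1, 11 without MkP VF 3 and 12 without pre-MegE VF 3.

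In the cytoskeleton list, 11 of 34 tested genes rose and none fell, with a median log2 change of 0.60. Myom1, a sarcomere protein, was at 53, 25 and 31.7 CPM in MkP VF and 4.82, 4.56 and 4.54 CPM in pre-MegE VF (log2 2.98 ± 0.33, edgeR adjusted p = 0.000936), and Fhl1, a LIM-domain protein, at 40.1, 25.7 and 24.8 CPM in MkP VF and 5.23, 4.75 and 3.61 CPM in pre-MegE VF (log2 2.74 ± 0.31, edgeR adjusted p = 0.00112). Both were nearly level across pre-MegE VF libraries and highest in MkP VF 1. Tuba8, an alpha tubulin, and the focal adhesion genes Vcl and Lims1 rose by log2 1.66, 1.40 and 1.51. Tubb1, the tubulin of the platelet rim, was low in both groups, at 7.43, 6.04 and 5.47 CPM in MkP VF and 1.83, 2.14 and 0.970 CPM in pre-MegE VF. Its log2 change of 1.94 ± 0.45 (edgeR adjusted p = 0.0271) did not pass without MkP VF 1 (0.113), MkP VF 2 (0.071), MkP VF 3 (0.0721) or pre-MegE VF 3 (0.0823). The abundant genes Myh9, Flna and Tln1 were not called. The count of higher genes was 5 without MkP VF 1, 6 without MkP VF 3 and 6 without pre-MegE VF 3.

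Genes that build and release granules changed for a few members, 5 of 30 higher and none lower, with a median log2 change of 0.40. Slc35d3, needed for dense granules, was at 129, 95.5 and 146 CPM in MkP VF and 28.1, 22.5 and 21.0 CPM in pre-MegE VF, and Rab27b, a small GTPase of granule release, at 264, 230 and 245 CPM in MkP VF and 57.5, 38.3 and 47.5 CPM in pre-MegE VF. Both rose by log2 2.37, with SE of 0.24 and 0.23 (edgeR adjusted p = 0.000696 each). Plek, the main protein kinase C substrate of platelets, was at 854, 717 and 605 CPM in MkP VF and 249, 99.5 and 189 CPM in pre-MegE VF (log2 2.02 ± 0.32, edgeR adjusted p = 0.00451). Nbeal2, whose loss empties alpha granules, was not called at a log2 change of 0.52. These 3 were the ones that rose in all 6 refits, and 3 of the list rose without any one MkP VF library, without pre-MegE VF 3 or without both libraries numbered 2.

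Of 24 megakaryocyte transcription factors tested, 5 rose and none fell, with a median log2 change of 0.37. Among those that rose were Meis1, a homeobox factor, Fli1, an ETS factor, Mef2c, a MADS-box factor, and Runx1. Fli1 was at 441, 415 and 412 CPM in MkP VF and 170, 110 and 133 CPM in pre-MegE VF (log2 1.62 ± 0.23, edgeR adjusted p = 0.00229), and Mef2c was at 613, 549 and 534 CPM in MkP VF and 228, 142 and 175 CPM in pre-MegE VF (log2 1.64 ± 0.24, edgeR adjusted p = 0.00259). Meis1 rose by log2 1.33 ± 0.23 (edgeR adjusted p = 0.007). Fli1, Mef2c and Meis1 were apart between the groups. Runx1 was at 154, 145 and 160 CPM in MkP VF and 96.0, 77.6 and 93.3 CPM in pre-MegE VF (log2 0.78, edgeR adjusted p = 0.0398) and passed in 2 of the 6 refits. Gata1, the factor both lineages need, was at 262, 299 and 301 CPM in MkP VF and 226, 599 and 384 CPM in pre-MegE VF and overlapped. Gata2 was apart between the groups but not called (edgeR adjusted p = 0.0515), and Nfe2 and Gfi1b overlapped. Without pre-MegE VF 1, 8 factors rose.

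**Figure D2:**
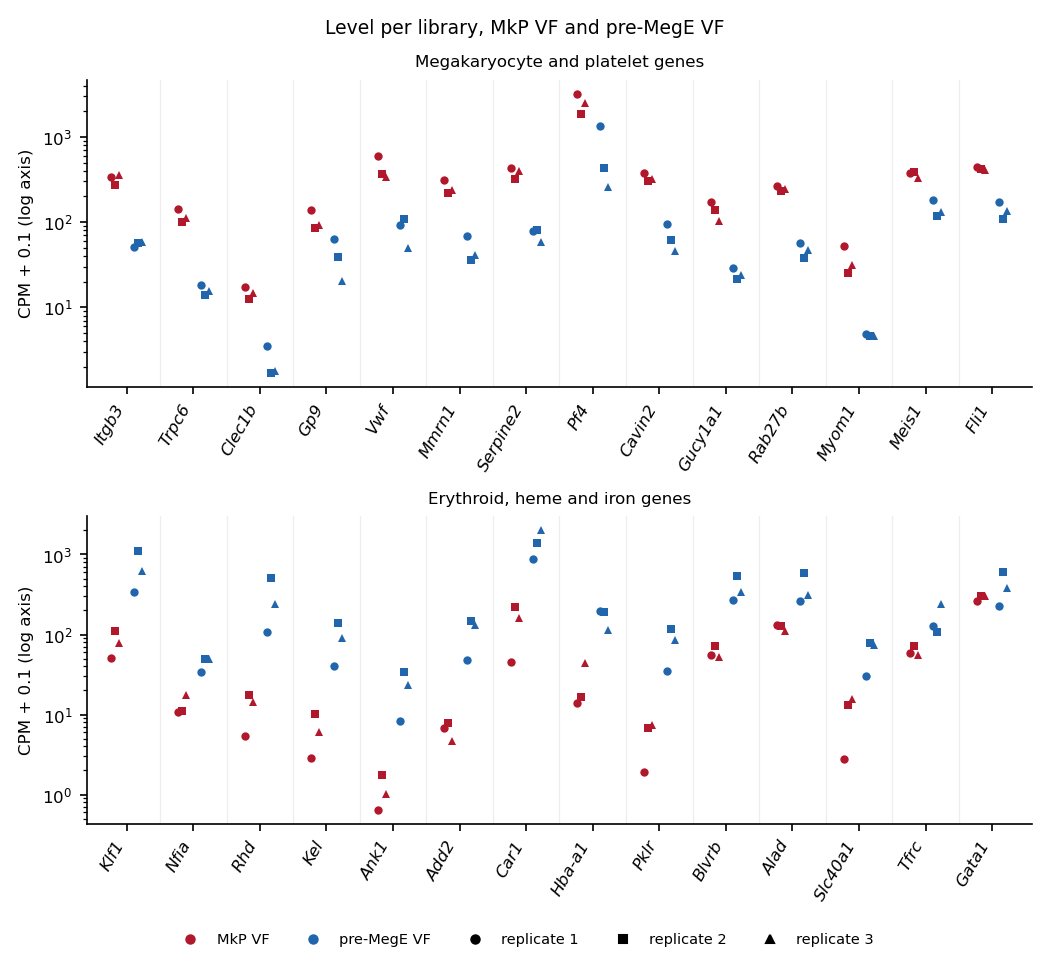
Level per library of 14 megakaryocyte and platelet genes (top) and 14 erythroid, heme and iron genes (bottom): y, CPM plus 0.1 on a log axis; red, MkP VF, blue, pre-MegE VF; circles, squares and triangles, replicates 1, 2 and 3. In the top panel each red group lies above its blue group, and in the bottom panel each lies below except for Gata1, which overlaps.

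The red cell programme was lower in MkP VF. Of the erythroid transcription factors, 2 of 24 tested fell and 1 rose. Klf1, the factor that switches on red cell genes (chr8:84901982-84905291), was at 51.0, 110 and 78.7 CPM in MkP VF and 336, 1094 and 615 CPM in pre-MegE VF (log2 -3.09 ± 0.43, edgeR adjusted p = 0.00229). Nfia, a factor that favours the erythroid branch, was at 10.8, 10.9 and 17.6 CPM in MkP VF and 33.6, 48.9 and 48.7 CPM in pre-MegE VF (log2 -1.74 ± 0.28, edgeR adjusted p = 0.00482). The member that rose was Cited2, a transcriptional cofactor, with a log2 change of 1.74 (edgeR adjusted p = 0.0375), which passed in 1 of 6 refits, and 3 factors rose without pre-MegE VF 1 and none without both libraries numbered 2. Epor, the erythropoietin receptor, was at 44.4, 52.5 and 47.6 CPM in MkP VF and 52.3, 141 and 101 CPM in pre-MegE VF, with overlap between the groups (edgeR adjusted p = 0.0793).

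Red cell membrane and blood group genes fell in 16 of 33 cases tested and rose in 1, with a median log2 change of -1.11. Rhd, the Rh blood group protein shown above, was at 5.22, 17.5 and 14.1 CPM in MkP VF and 107, 512 and 239 CPM in pre-MegE VF (log2 -4.54 ± 0.60, edgeR adjusted p = 0.00186). The pre-MegE VF libraries differed widely among themselves, yet the lowest stood far above the highest MkP VF library. Ank1 and Add2 of the membrane skeleton changed by log2 -4.38 and -4.12, Ermap, a blood group protein, by -3.92, and Kel, the Kell antigen, by -3.85, with edgeR adjusted p of 0.000696 to 0.00282. Car1, an erythroid carbonic anhydrase, was at 45.4, 218 and 162 CPM in MkP VF and 886, 1388 and 1999 CPM in pre-MegE VF (log2 -3.33 ± 0.52, edgeR adjusted p = 0.00386). Slc14a1, the urea transporter of the Kidd blood group, was the member that rose, at 1168, 1133 and 1199 CPM in MkP VF and 299, 512 and 378 CPM in pre-MegE VF (log2 1.56 ± 0.25, edgeR adjusted p = 0.00448). All 16 genes that fell were lowest, among pre-MegE VF libraries, in pre-MegE VF 1, the library rich in neutrophil RNA, and 13 of them were lowest in MkP VF 1 among MkP VF libraries; of all 455 genes that fell, 243 were lowest in pre-MegE VF 1 and 265 in MkP VF 1. Of the 16, 10 fell in all 6 refits. The count was 20 without pre-MegE VF 1, 10 without pre-MegE VF 3 and 5 without both libraries numbered 2.

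Late erythroid genes, a list that shares members with the membrane list, fell in 14 of 26 cases and rose in none, with a median log2 change of -1.63. Their summed level was 1903 to 2143 CPM in MkP VF and 4355 to 9636 CPM in pre-MegE VF. In bulk samples, fewer erythroid-leaning cells and less erythroid RNA per cell cannot be told apart. The alpha globin gene Hba-a1 was at 13.9, 16.7 and 43.3 CPM in MkP VF and 199, 193 and 115 CPM in pre-MegE VF (log2 -2.78 ± 0.42, edgeR adjusted p = 0.00314), and its near copy Hba-a2, whose reads cannot be separated from it, moved with it. Of 6 globin genes tested 4 fell, but the beta globin entries Hbb-bt and Hbb-b2, listed with the same values, passed in none of the 6 refits, leaving 2 calls in each, and none of the 6 genes passed without both libraries numbered 2. The late erythroid count was 8 without MkP VF 3, 8 without pre-MegE VF 3 and 3 without both libraries numbered 2. Alas2 and Slc4a1, which mark haemoglobin-making cells, were not called.

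Heme and iron genes fell more modestly. Of 25 genes of heme synthesis, transport and breakdown 6 fell and none rose, with a median log2 change of -0.68. In the list for iron handling 7 of 28 fell and none rose, with a median of -0.63. Blvrb, which reduces a breakdown product of heme, was at 54.7, 72.4 and 52.5 CPM in MkP VF and 273, 539 and 338 CPM in pre-MegE VF (log2 -2.68 ± 0.29, edgeR adjusted p = 0.000936). Blvrb alone of the 6 heme genes fell in all 6 refits, so no gene of heme synthesis itself did. Alad, an early enzyme of heme synthesis, was at 131, 129 and 111 CPM in MkP VF and 263, 582 and 311 CPM in pre-MegE VF (log2 -1.64 ± 0.30, edgeR adjusted p = 0.00842; 0.0695 without MkP VF 3). Both were far more even in MkP VF than in pre-MegE VF.

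Slc40a1, the iron exporter ferroportin, was at 2.71, 13.1 and 15.7 CPM in MkP VF and 29.8, 78.3 and 74.2 CPM in pre-MegE VF, with no overlap (log2 -2.53 ± 0.55, edgeR adjusted p = 0.0204). It did not pass without MkP VF 2 (0.0995), MkP VF 3 (0.0695), pre-MegE VF 2 (0.113) or pre-MegE VF 3 (0.0932). Steap3 and Slc11a2, which reduce and carry iron out of endosomes, fell by 1.92 and 1.71 on the log2 scale (edgeR adjusted p = 0.0102 and 0.0108). Neither passed without MkP VF 3 (0.0752 for Steap3, 0.0799 for Slc11a2) or without pre-MegE VF 3 (0.0541 and 0.053). Tfrc, the transferrin receptor, was at 59.4, 72.4 and 55.4 CPM in MkP VF and 127, 106 and 241 CPM in pre-MegE VF (log2 -1.34 ± 0.30, edgeR adjusted p = 0.0242) and passed in 3 of the 6 refits. Fth1 and Ftl1, the ferritin chains, had log2 changes of -0.95 and -1.08 (edgeR adjusted p = 0.0384 and 0.05, the second just under the threshold before rounding) and passed in 2 and 1 of the refits. None of the 7 iron genes passed in all 6: the count was 4 without MkP VF 1, MkP VF 2 or pre-MegE VF 2, 0 without MkP VF 3 and 1 without pre-MegE VF 3. For heme genes it was 2 without MkP VF 1, 3 without MkP VF 2, 1 without MkP VF 3, 12 without pre-MegE VF 1 and 3 without pre-MegE VF 3. Without both libraries numbered 2, 2 heme genes and 2 iron genes fell.

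Part of the stem cell list was higher in MkP VF. Of 41 genes tested 14 rose and 2 fell, with a median log2 change of 0.70. The genes that rose include Trpc6, Vwf, Meis1, Slamf1 and Angpt1, which also stand in the megakaryocyte lists; Slamf1 and Angpt1 passed in 5 of the 6 refits. Mycn, a MYC family factor (chr12:12936093-12941836), was at 254, 240 and 303 CPM in MkP VF and 74.6, 69.4 and 67.2 CPM in pre-MegE VF (log2 1.92 ± 0.21, edgeR adjusted p = 0.000936). Esam, an adhesion molecule of stem cells and platelets, was at 176, 161 and 149 CPM in MkP VF and 41.5, 50.4 and 29.5 CPM in pre-MegE VF (log2 2.00 ± 0.24, edgeR adjusted p = 0.00145), and Tek, the receptor of angiopoietin, and Ctnnal1 rose by log2 1.32 and 1.94. The genes that fell were Cd34, described above, and Ifitm1, a membrane protein, at 110, 162 and 121 CPM in MkP VF and 1717, 718 and 292 CPM in pre-MegE VF (log2 -2.80, edgeR adjusted p = 0.00925), which did not pass without MkP VF 1 (0.0549) or MkP VF 3 (0.0863). Hlf, Mecom, Procr, Fgd5 and Ly6a, which are closely tied to stem cells, were not called. Of the 14, 10 rose in all 6 refits. Without both libraries numbered 2, 11 rose and 1 fell.

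The line's 3 LTHSC libraries, long-term stem cells of the same genotype, put these levels in order. The values are CPM scaled over the 9 VF libraries, the stages share the pre-MegE libraries, and no test was made. LTHSC VF 2, like the other VF libraries numbered 2, held Xist (533 CPM by total count) beside Ddx3y (76.4 CPM). Tek was at 104, 88.8 and 104 CPM in LTHSC, 26.3, 33.8 and 28.6 CPM in pre-MegE and 73.8, 77.0 and 71.1 CPM in MkP. Meis1 was at 437, 443 and 460 CPM in LTHSC, 196, 119 and 136 CPM in pre-MegE and 389, 405 and 339 CPM in MkP. For each of these genes pre-MegE lies below both other stages, and LTHSC lies above MkP. Mycn and Esam had the same order, with Esam at 299, 275 and 295 CPM in LTHSC, 44.7, 51.5 and 30.7 CPM in pre-MegE and 184, 170 and 155 CPM in MkP. These genes were picked as higher in MkP than in pre-MegE, so that side of the order was set by the choice. Every LTHSC library was above every pre-MegE library for all 14 stem cell genes that rose. The same held for 280 of all 412 genes that rose and 3283 of 12345 genes not called, so it is not particular to stem cell genes. Vwf was at 282, 180 and 194 CPM in LTHSC, 99.4, 111 and 51.5 CPM in pre-MegE and 626, 384 and 351 CPM in MkP, above both other stages. Hlf was at 140, 136 and 185 CPM in LTHSC, 21.2, 7.47 and 12.6 CPM in pre-MegE and 22.2, 20.9 and 13.4 CPM in MkP. Procr was at 70.3 to 84.8 CPM in LTHSC and under 2 CPM in the other stages, so these defining stem cell genes were low in both progenitors.

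**Figure D3:**
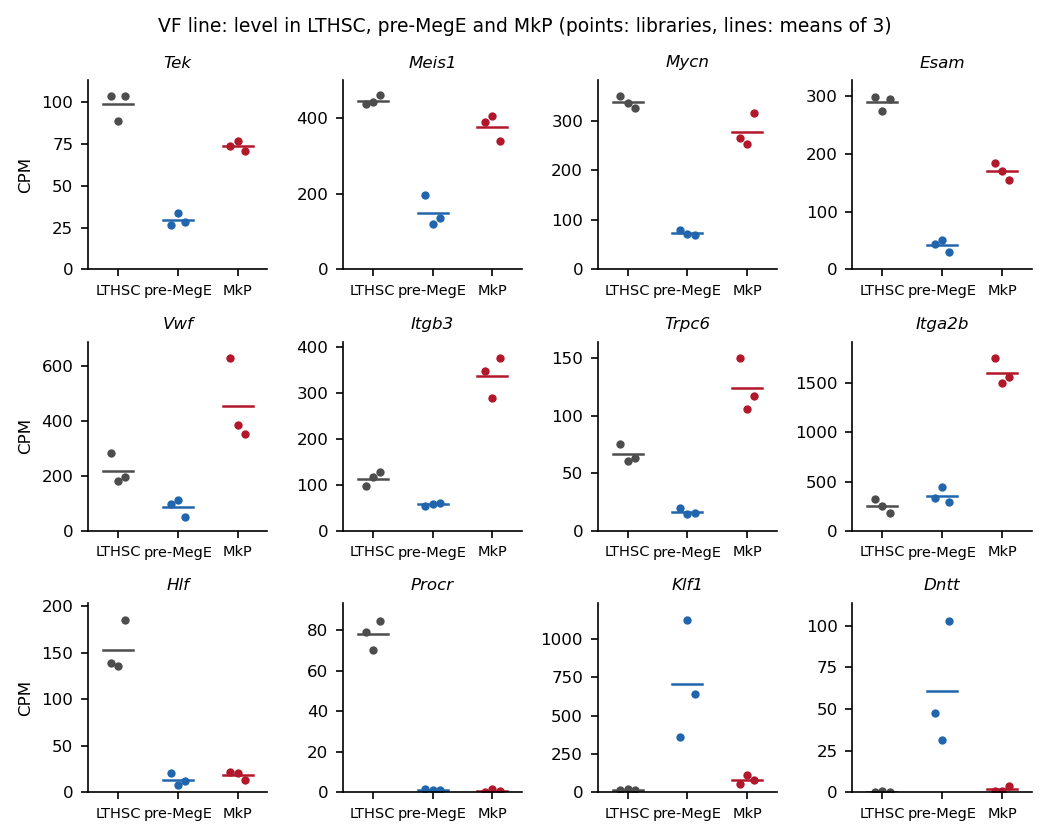
Level of 12 genes in the VF line by population: x, LTHSC, pre-MegE and MkP; y, CPM from 0; points, 3 libraries each; lines, their means. Tek, Meis1, Mycn and Esam are low in pre-MegE and high on both sides, Vwf, Itgb3, Trpc6 and Itga2b are highest in MkP, Hlf and Procr are high in LTHSC only among these populations, and Klf1 and Dntt peak in pre-MegE.

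Among cytokine receptors, 2 of 30 tested rose and 8 fell. Among those that rose, Tek was at 70.8, 73.0 and 68.1 CPM in MkP VF and 24.5, 33.1 and 27.5 CPM in pre-MegE VF, with no overlap (log2 1.32 ± 0.21, edgeR adjusted p = 0.00434). The 8 that fell were Il1rl1, the interleukin 33 receptor of mast cells, Flt3, the receptor of lymphoid and dendritic progenitors, Csf2rb and Csf2rb2, beta chains of the interleukin 3 family, Csf3r and Csf1r, receptors of granulocyte and macrophage factors, and Ifngr1 and Ifngr2, the interferon gamma receptor. Flt3 was at 6.51, 8.12 and 22.5 CPM in MkP VF and 65.4, 39.7 and 87.6 CPM in pre-MegE VF (log2 -2.37 ± 0.46, edgeR adjusted p = 0.0112; 0.0518 without MkP VF 2 and 0.0695 without pre-MegE VF 3). None of the 8 passed in all 6 refits, and 5 fell without MkP VF 1, 4 without MkP VF 2, 2 without MkP VF 3, 2 without pre-MegE VF 3 and 3 without both libraries numbered 2. Jak2 itself was at 91.5, 75.4 and 72.0 CPM in MkP VF and 58.5, 41.2 and 60.7 CPM in pre-MegE VF, apart between the groups but not called (log2 0.57 ± 0.22, edgeR adjusted p = 0.174); it cannot check the labels, since both groups carry the mutation.

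In the JAK-STAT list, 2 of 40 genes tested rose, Socs2, a feedback inhibitor, and Bcl2l1, a survival factor. None fell, and the median log2 change was 0.098. The share called by edgeR is near the 3.12% of all genes. Every MkP VF library was above every pre-MegE VF library for 12 of the 40 and below for 4, against 14.0% and 12.2% of all genes. DESeq2 called 6 of the list higher and 1 lower, against 647 and 773 of all 13220 genes. Socs2 was at 65.6, 41.8 and 48.2 CPM in MkP VF and 32.6, 12.2 and 16.9 CPM in pre-MegE VF (log2 1.34, edgeR adjusted p = 0.0431; it passed in 1 of 6 refits). Bcl2l1 was at 106, 97.4 and 146 CPM in MkP VF and 54.4, 50.4 and 34.9 CPM in pre-MegE VF (log2 1.32, edgeR adjusted p = 0.0102; 0.0673 without MkP VF 3 and 0.0508 without pre-MegE VF 3). The count was 1 without MkP VF 1, MkP VF 2 or both libraries numbered 2, 0 without MkP VF 3 or pre-MegE VF 3 and 4 without pre-MegE VF 1. Tetraspanins, membrane organisers, were split, 2 of 21 higher and 4 lower. Cd82 was the clearest of those that fell, at 11, 20 and 18.4 CPM in MkP VF and 69.2, 197 and 148 CPM in pre-MegE VF (log2 -3.07 ± 0.38, edgeR adjusted p = 0.00148), while Cd9 rose. The split was 1 higher and 1 lower without MkP VF 1 and also without pre-MegE VF 3, and 1 higher without MkP VF 2, MkP VF 3 or both libraries numbered 2.

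Early B-lymphoid genes were present in pre-MegE VF and nearly absent in MkP VF. Of 16 lymphoid genes tested 11 fell and none rose, with a median log2 change of -4.37, which stays -4.37 with Rag1 at its bound. Igll1, part of the surrogate light chain of pre-B cells (chr16:16860671-16863985), was at 0.375, 1.25 and 0.657 CPM in MkP VF and 41.7, 45.3 and 55.5 CPM in pre-MegE VF (log2 -5.97 ± 0.41, edgeR adjusted p = 0.000185). Vpreb1, its partner, was at 2.17, 2.92 and 3.46 CPM in MkP VF and 49.9, 36.9 and 40.7 CPM in pre-MegE VF (log2 -3.90 ± 0.29, edgeR adjusted p = 0.000228), and its count is uncertain because a near copy, Vpreb2, exists. The levels of Igll1 and Vpreb1 were even across the pre-MegE VF libraries, whereas 8 of the 11 genes that fell were highest in pre-MegE VF 3 and 8 were lowest in pre-MegE VF 2. Dntt, the enzyme that adds bases at antigen receptor joints, was at 0.751, 0.882 and 3.42 CPM in MkP VF and 44.3, 30.8 and 99.0 CPM in pre-MegE VF (log2 -5.10 ± 0.63, edgeR adjusted p = 0.00145).

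Vpreb3, Cd79a and Blnk, further genes of the B-cell receptor path, changed by log2 -5.55, -5.20 and -4.15 (edgeR adjusted p = 0.00124, 0.000696 and 0.00285). Rag1, which cuts antigen receptor genes, had 0 counts in all 3 MkP VF libraries and 42, 45 and 169 counts in pre-MegE VF, at least 87.1-fold lower against a floor of 3 counts over the group. Il7r, the interleukin 7 receptor, had 0, 0 and 2 counts in MkP VF and 82, 17 and 221 counts in pre-MegE VF, a pre-MegE over MkP ratio of 163 with a 95% counting interval of 44.8 to 1350 (edgeR adjusted p = 0.00657; 0.0559 without pre-MegE VF 3). The intervals and floors cover counting error only. The T-cell genes Cd3d, Cd3e and Cd3g were at 0 in MkP VF and no higher than 1.07 CPM in pre-MegE VF, and Cd79b and Nkg7 overlapped. Of the 11, 7 fell in all 6 refits, 8 to 12 fell without 1 library, and 7 fell without both libraries numbered 2. In LTHSC of the VF line Igll1 was at 0.0825, 0.125 and 0.0418 CPM, below all 3 MkP libraries and far below pre-MegE on the scale of the 9 VF libraries.

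Genes of other blood cells were uneven, and their part in the results was not tested. Of 27 neutrophil and monocyte genes tested, 3 fell (Cd68, Csf3r and Csf1r) and none rose, while the summed level of the list was 4216 to 9344 CPM in MkP VF and 9852 to 21480 CPM in pre-MegE VF, the highest in pre-MegE VF 1. Mpo, the myeloperoxidase gene that early progenitors also express, was most of it, at 2514, 4853 and 5940 CPM in MkP VF and 10704, 7445 and 7314 CPM in pre-MegE VF, apart between the groups but not called (edgeR adjusted p = 0.136). Elane, neutrophil elastase, was at 492, 746 and 1075 CPM in MkP VF and 2496, 630 and 885 CPM in pre-MegE VF and overlapped. Calls moved with single libraries: 1 gene fell without MkP VF 1, none without MkP VF 3 and 1 without pre-MegE VF 3. Without pre-MegE VF 1, 2 fell and 1 rose, and the median log2 change of the list was 0.015, against -1.15 with it, so the lower median depended on that library. Of 14 mast, basophil and eosinophil genes 3 fell (Ms4a2, Siglecf and Hdc), with a median log2 change of -0.94 that was 0.28 without pre-MegE VF 1. No gene fell without MkP VF 3, and 1 fell without any one pre-MegE VF library or without both libraries numbered 2; the list summed to 946 to 1172 CPM in MkP VF and 1029 to 1285 CPM in pre-MegE VF, and Kit and Gata2, which progenitors share, made up most of it.

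**Figure D4:**
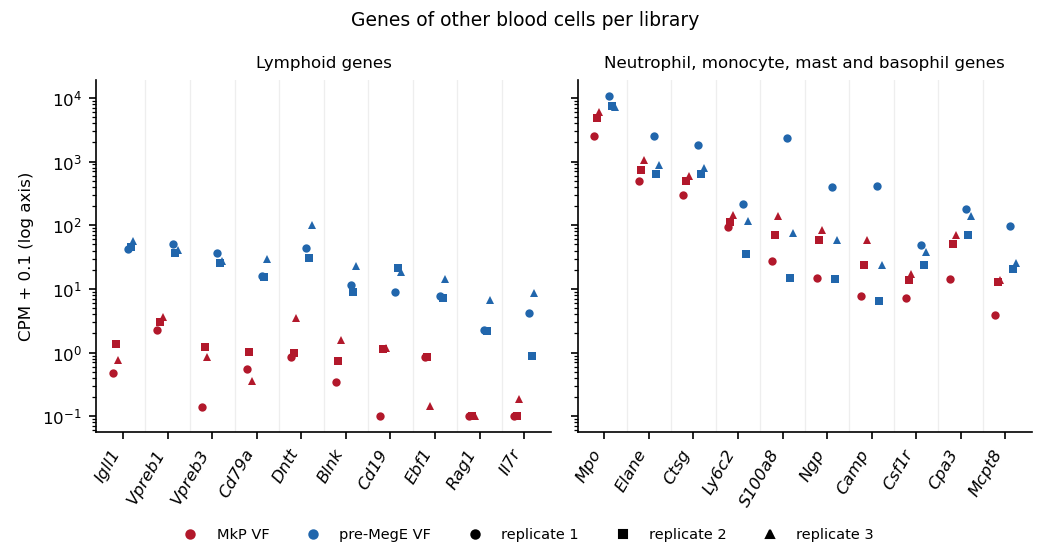
Level per library of 10 lymphoid genes (left) and 10 neutrophil, monocyte, mast and basophil genes (right): y, CPM plus 0.1 on a log axis; red, MkP VF, blue, pre-MegE VF; circles, squares and triangles, replicates 1, 2 and 3. The lymphoid genes lie well below in MkP VF, with Rag1 at 0 in every MkP VF library, whereas the granule genes S100a8, Ngp and Camp are highest in pre-MegE VF 1.

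Calls among cell cycle genes were near the 3.44% of all genes that fell. Of 42 genes of G1 and S phase 2 fell, and of 47 of G2 and mitosis 1 fell, with none higher and medians of -0.18 and 0.22. Many mitotic genes were still slightly higher in MkP VF, 33 of 47 with a log2 change above 0. Every MkP VF library was above every pre-MegE VF library for 17 of the 47 and below for 1. The shares of all genes tested were 14.0% above and 12.2% below. For G1 and S phase, 4 of 42 were above and 7 below. Ccne1, cyclin E1, was at 33.4, 45.2 and 38.6 CPM in MkP VF and 84.4, 222 and 172 CPM in pre-MegE VF, with no overlap (log2 -2.03 ± 0.32, edgeR adjusted p = 0.0045). The other G1 and S gene was Cdc6 (edgeR adjusted p = 0.0399), which passed in 1 of 6 refits. The mitotic gene was Ect2 (edgeR adjusted p = 0.0487), which passed in none of the 6 and not without both libraries numbered 2. Without pre-MegE VF 1, 5 genes of G1 and S phase fell, and 1 did without any other single library or without both libraries numbered 2.

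Outside the lists, the largest increases among genes above 10 CPM included Amotl2, a protein of cell junctions, at 32.3, 18.3 and 26.1 CPM in MkP VF and 4.36, 2.61 and 2.17 CPM in pre-MegE VF (log2 3.07 ± 0.37, edgeR adjusted p = 0.00145). Obsl1, a cytoskeletal linker related to obscurin, and Col28a1, a collagen chain, rose by log2 2.54 and 2.57. The largest decreases included Atp7b, a copper exporter, at 0.542, 1.07 and 2.5 CPM in MkP VF and 16.1, 54.3 and 52.2 CPM in pre-MegE VF (log2 -4.90 ± 0.61, edgeR adjusted p = 0.00145). Cldn13, a claudin known from mouse erythroid cells, changed by log2 -4.89 and Acsl6, a long-chain acyl-CoA synthetase, by -4.87 (edgeR adjusted p = 0.000936 and 0.00145). Within the glycolysis list, Pklr, the pyruvate kinase of red cells and liver, was at 1.84, 6.78 and 7.40 CPM in MkP VF and 35.1, 116 and 85.8 CPM in pre-MegE VF (log2 -3.89 ± 0.54, edgeR adjusted p = 0.00229).

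**Figure D5:**
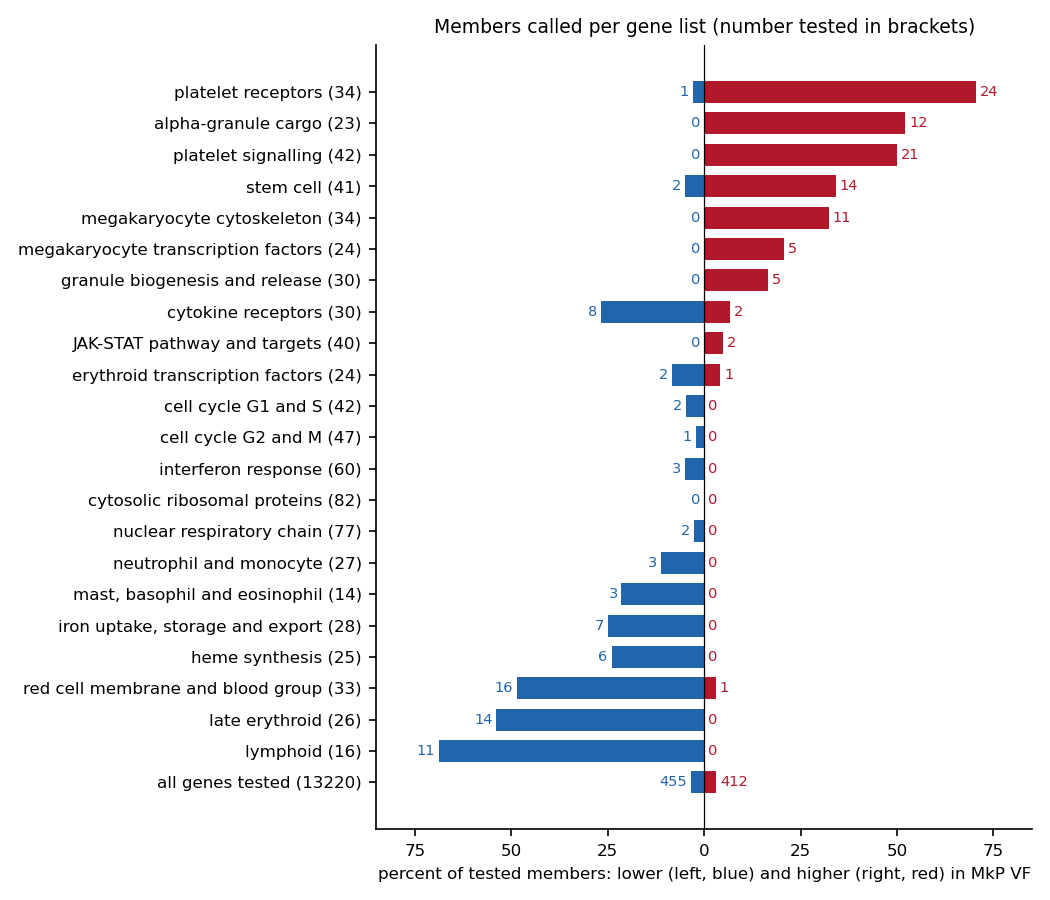
Share of tested members called per gene list, 22 lists and all genes: bars to the right (red), percent of members higher in MkP VF; bars to the left (blue), percent lower; numbers at the bar ends, counts of genes; numbers in brackets, members tested. Platelet receptors reach furthest to the right (24 of 34) and lymphoid genes furthest to the left (11 of 16), while the bars for all genes stand at 3.12% and 3.44%.

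The KI line, labelled Scl.Cre mouse Jak2 knock-in, was the other line with both populations, and a test asked where the change between populations differed between VF and KI. With 3 libraries in each of the 4 groups, none of 13888 genes passed (0%), 390 had an unadjusted p under 0.05, and the smallest edgeR adjusted p was 0.988; DESeq2 called 9 genes. Within KI alone 32 genes were higher and 138 lower in MkP than in pre-MegE. In that fit Klf1 changed by log2 -3.12 in VF and -3.21 in KI, and Igll1 by -5.98 and -7.66. Vwf rose by log2 2.35 in VF and 1.78 in KI, and Itgb3 by 2.52 and 1.75. The differences between the lines, VF minus KI, were 0.10 ± 0.68, 1.68 ± 1.02, 0.57 ± 0.52 and 0.77 ± 0.48 for these 4 genes, and none passed. The KI libraries were uneven, with Malat1 at 10930 and 4645 CPM in MkP KI 5 and 6 and 7584 CPM in pre-MegE KI 1. In simulated counts this edgeR test recovered 1.49% of 2-fold, 7.46% of 4-fold and 24.2% of 8-fold changes. The absence of a call therefore does not show that the lines act alike.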

How the data were processed

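The authors deposited raw read counts per gene with gene length, as made with STAR 2.7.0c and featureCounts of Subread 1.6.4 on mm10, per the submitters' processing notes; annotation release, strand setting and treatment of multi-mapping reads are not given in the sources used here, so near copies, overlapping genes and antisense partners are uncertain. Columns named MEP were matched to the pre-MegE samples by genotype and number. Of 24454 rows, 16 without a symbol were left out, and 24374 matched RefSeq GRCm38.p6 by Entrez ID. Counts of the 6 libraries were filtered by group with filterByExpr, scaled by TMM and tested with edgeR 4.0.16 in R 4.3.3 (robust quasi-likelihood, Benjamini-Hochberg threshold 0.05; biological coefficient of variation 0.31). CPM use these factors, except those of Xist, Ddx3y and Malat1, which are scaled by the total count alone, and TPM use the deposited gene lengths. The VF against KI test used 12 libraries and the stage levels 9. Alternatives were RLE and upper-quartile scaling, other count filters, DESeq2 1.42.0, limma 3.58.1 voom, all 24 libraries, a test against 2-fold, a replicate block and leaving out libraries.

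Scripts were tested on simulated data. Counts were simulated from each gene's mean over both groups and its spread. Changes of 2-fold, 4-fold and 8-fold were put into 67, 67 and 66 of 13220 genes. The main test recovered 37.3% of the 2-fold, 82.1% of the 4-fold and 97% of the 8-fold changes and called 11 unchanged genes. Fewer genes were changed than were called in the data, so recovery in the data may differ. Replicates of a group differed beyond sampling noise (chi-square per degree of freedom at least 23.15). The members and gene lists were chosen with earlier results of these data known. Named were Jak2, the sorting markers, up to 4 genes per list and direction by size of change, and the 10 largest changes each way at a mean of at least 10 CPM; other genes named are list members picked after their values were seen. Some results are not reported here.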

Additional observations from a re-analysis of the deposited data

Results flagged for a closer look

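DESeq2 called 9 genes whose change between MkP and pre-MegE differed between the VF and KI lines (VF minus KI, log2), while edgeR gave an adjusted p of 0.988 for each. Csf2rb, a chain of interleukin 3 family receptors, differed by -2.34 ± 0.48 (SE; DESeq2 adjusted p = 0.0136), with log2 changes of -1.67 in VF and 0.66 in KI and no overlap of the populations in either line. It was at 11, 16 and 12.7 CPM in MkP VF and 59.7, 30.4 and 36.4 CPM in pre-MegE VF, and at 51.2, 54.0 and 43.2 CPM in MkP KI and 22, 41.5 and 30 CPM in pre-MegE KI. Mcpt8, a basophil protease, differed by -5.34 ± 1.18 (DESeq2 adjusted p = 0.00967), and Atl1, a membrane-shaping GTPase, by -5.17 ± 1.40 (0.047), each also in opposite directions without overlap. Elane, neutrophil elastase, differed by -4.55 ± 1.11 (DESeq2 adjusted p = 0.0124) and overlapped in VF.

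The other 5 differed the other way, with a decrease in KI and overlap in VF. Fos, an immediate-early factor, differed by 4.37 ± 0.81 (DESeq2 adjusted p = 0.00166), at 32.6, 5.98 and 25.3 CPM in MkP VF and 22.0, 7.35 and 11.5 CPM in pre-MegE VF, and at 34.6, 26.6 and 17.5 CPM in MkP KI and 361, 440 and 242 CPM in pre-MegE KI. Arpp21, an RNA-binding phosphoprotein also made in early lymphoid cells, differed by 6.83 ± 1.37 (DESeq2 adjusted p = 0.00967), Camk2b, a calcium-dependent kinase, by 4.06 ± 0.97 (0.0189), Fam212b by 5.26 ± 1.35 (0.0319) and Slc22a18, a transporter, by 3.23 ± 0.76 (0.0319). MkP KI 5, MkP KI 6 and pre-MegE KI 1 held more Malat1 and fewer genes than the rest; without them edgeR called none of these genes, and DESeq2 was not run.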

How the results depend on the processing

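Against 412 genes higher and 455 lower, DESeq2 gave 647 and 773, a test against 2-fold 63 and 108, a fit on all 24 libraries 72 and 80, and the fit without both libraries numbered 2 gave 180 and 177. Leaving out 1 library gave 153 to 528 higher and 161 to 556 lower genes, with the low end of both without MkP VF 3 and the high end of both without pre-MegE VF 1; without pre-MegE VF 3 there were 159 and 218, and without MkP VF 1 there were 168 and 231. RLE and upper-quartile scaling, voom, no count filter and a minimum of 10 CPM stayed within 1.5 times. Deviations of same-numbered libraries from their group means correlated at 0.033, 0.082 and -0.06, and the numbers were not taken as pairs. Yet both libraries numbered 2 hold Xist beside Y-linked RNA, and so does LTHSC VF 2, with Xist at 533 CPM and Ddx3y at 76.4 CPM. In the VF libraries numbered 1 and 3 Xist was at most 4.72 CPM. Whether equal numbers share animals is not given in the labels and was not tested. A replicate block gave 488 higher and 530 lower. No paired analysis was possible for the VF against KI difference because the MkP KI and pre-MegE KI libraries share no number. For that difference DESeq2 gave 5 higher and 4 lower genes. Without 3 uneven KI libraries edgeR gave 3 higher, Kdm5d, Eif2s3y and Ddx3y, all Y-linked, with MkP KI 4 as the 1 MkP KI library left, assumed to vary like the other groups; it has Xist at 2720 CPM and Ddx3y at 0.0337 CPM, against 0.533 and 0.592 CPM of Xist and 38.9 and 31.3 CPM of Ddx3y in the pre-MegE KI libraries left; each fit without 1 library gave 0. Of 133 named genes no called gene changed sign in any setting, and no uncalled gene passed with the other sign. A change of sign in a gene called in neither fit was not counted. Over genes and settings 1652 values kept their side of the threshold, 455 lost it and 6 gained it. The cause of these changes was not tested. Genes at under 5 CPM in MkP VF, 174 of the 455 lower, have the least precise fold changes.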

Other observations

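Most ribosomal and mitochondrial genes had a log2 change below 0, and few were called by edgeR. Of all 13220 genes tested, 6880 were below 0 and 3.44% fell, while DESeq2 called 773 lower. Of 77 nuclear genes of the respiratory chain, 73 had a log2 change below 0, with a median of -0.68, and 2 fell: Uqcr11, at 232, 221 and 204 CPM in MkP VF and 1295, 555 and 293 CPM in pre-MegE VF (log2 -1.71, edgeR adjusted p = 0.0393, passing in 1 of 6 refits), and Atp5g1. Without pre-MegE VF 1 the count was 3, without pre-MegE VF 3 it was 10, without pre-MegE VF 2 it was 1, and without any one MkP VF library or both libraries numbered 2 it was 0. The median was -0.32 without pre-MegE VF 1. DESeq2 called 13 of the 77 respiratory chain genes lower. Of 82 cytosolic ribosomal protein genes 76 were below 0, with a median of -0.54 and none called; DESeq2 called 2 lower. Without pre-MegE VF 1 the median was -0.10, and the list summed to 19090 to 29100 CPM in MkP VF and to 43170, 31300 and 22580 CPM in pre-MegE VF. Of 78 mitochondrial ribosomal protein genes 72 were below 0 and 2 fell, Mrpl37 and Mrpl55, and DESeq2 called 8 lower. By edgeR 4 were lower without pre-MegE VF 3 and 3 without pre-MegE VF 1. None was lower without pre-MegE VF 2, any one MkP VF library or both libraries numbered 2.

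In stress and metabolic lists the shares called can be read against 3.12% of all genes higher and 3.44% lower. Of 30 immediate-early genes Nr4a2, Btg2 and Klf6 rose, and of 60 interferon response genes Ifitm1, Oasl1 and Gbp3 fell, with 0 to 3 calls in that direction in each list when 1 library was left out, and 1 and 0 without both libraries numbered 2. Of 26 genes of p53 and cell cycle inhibitors Btg2 and Fas rose and Cdkn1a, Gadd45a and Pvt1 fell, none of them in all 6 refits; without both libraries numbered 2, 1 rose and 1 fell. Of 36 genes of glycolysis and hypoxia Ndrg1 and Slc2a3 rose and Pklr and Hk3 fell, of which Pklr passed in all 6 refits but neither Pklr nor Hk3 without both libraries numbered 2, and none of 27 cholesterol synthesis or 38 unfolded protein response genes passed. Kdr, a receptor of vascular endothelial growth factor, was at 13.6, 11.2 and 12.4 CPM in MkP VF and 2.28, 2.56 and 2.37 CPM in pre-MegE VF, 1 of 2 genes of 9 in the stroma and endothelium list that rose. The other, Col1a2, a collagen chain, passed in 2 of 6 refits. Without both libraries numbered 2, 1 gene of the list rose and 1 fell. Pdgfrb, a receptor of platelet-derived growth factor, fell, at 4.01, 10.3 and 6.48 CPM in MkP VF and 39.0, 39.4 and 36.3 CPM in pre-MegE VF (log2 -2.47).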
